A study of Mus musculus with 7 samples.

Results

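This account covers 10 heat shock and unfolded protein genes in the nasal tissue of mice that inhaled diesel exhaust particles (DEPs), the soot of diesel engines. They were chosen by name, as the array probes whose transcript belongs to *Hspa1a*, *Hspa1b*, *Hspa8*, *Hsp90aa1*, *Dnajb1*, *Hsph1*, *Hspa5*, *Hsp90b1*, *Ddit3* or *Herpud1*, out of 32095 genes or transcripts named on the array. A probe was found for 9 of the 10 genes. *Hspa1b* had none among the spots analysed, so no value of *Hspa1b* is given. The 9 genes had 12 probes in all, with 3 for *Hspa8* and 2 for *Hsph1*. Every one of the 12 probes stood well above its background on all 7 arrays in both channels, and all 9 genes passed the filter on dim probes.

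The mice were female, of the BALB/c inbred strain and 6 weeks old, with 32 animals in the series. Exposed mice breathed 100 µg/m3 of DEPs, suspended in saline and spread by an ultrasonic nebulizer, for 1 hour on 5 days of each week, over 4 weeks or over 8 weeks. Control mice received saline without DEPs, and nothing else in the labels separates the groups. RNA came from nasal tissue with septum and turbinate. By the paper's methods, jaw and nose were removed and the tissue lay between the incisive papilla and the second molar. Each Agilent mouse array carried RNA of exposed mice in the Cy5 channel and RNA of control mice in the Cy3 channel. There were 4 arrays at 4 weeks, on 1 slide, and 3 arrays at 8 weeks, on another slide. The labels call them biological replicates, but how many mice gave RNA to an array, and whether control RNA was shared between arrays, is not given in the sources used here. If control RNA was shared, the p-values measure only the spread between arrays. The dyes were never swapped, so treatment and dye cannot be told apart, and the same is true of time and slide. If all mice were 6 weeks old at the start, those sampled after 8 weeks were also older than those after 4 weeks. Exposure time and age at sampling then cannot be told apart either.

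Cells meet misfolded protein in 2 places with 2 programmes. In the cytosol, heat shock factor 1 switches on Hsp70 and Hsp90 chaperones and their helpers when proteins unfold. In the endoplasmic reticulum (ER), where secreted and membrane proteins fold, the sensors IRE1, ATF6 and PERK start the unfolded protein response, which raises the ER chaperones, the machinery that removes misfolded protein and, through ATF4 on the PERK branch, genes of amino acid supply and of cell death. Secretory cells such as gland cells and plasma cells carry much of the ER machinery at rest. Of the 10 genes, *Hspa1a*, *Hspa1b* and *Hspa8* encode cytosolic Hsp70 proteins, the first pair inducible by stress and the third made at all times. *Dnajb1* and *Hsph1* encode their helpers, an Hsp40 that delivers clients and a nucleotide exchange factor. *Hsp90aa1* encodes the inducible cytosolic Hsp90. *Hspa5* (BiP) and *Hsp90b1* (GRP94) are the Hsp70 and the Hsp90 of the ER. *Herpud1* encodes an ER membrane protein of ER-associated degradation, and *Ddit3* encodes CHOP, the transcription factor of the PERK branch that is linked to cell death.

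The promoters of these genes carry short motifs that the 2 programmes are known to use. RefSeq windows of the GRCm38.p6 build were available for 8 of the 10 genes, and *Hspa8* and *Hsp90aa1* had no entry. In the 250 bases before the start, both strands were searched for the ER stress response element, which is CCAAT and CCACG with 9 free bases between them. It was present in *Hspa5*, in *Hsp90b1* and in 0.113% of 32851 promoter windows of the same length. The ER stress response element II, ATTGG and CCACG with 1 free base between them, was present in *Herpud1* and in 0.0304% of the windows. A pair of heat shock units, GAA and TTC in either order with 2 free bases between them, was present in *Hspa1a*, *Hspa1b* and *Hsph1*, and in 12.8% of the windows, so a match is common. A row of 3 such units, GAA and TTC in turn with 2 free bases between neighbours, was in none of these 8 genes and in 0.466% of the windows. The C/EBP-ATF element TGATGCAAT was also in none of them and in 0.167% of the windows. Each row of 3 units also holds the pair, and the other motifs were searched separately. A match is a run of letters and not a measured binding site.

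The 5 windows below show where these motifs lie, and capitals mark the matches. They were chosen because *Hspa5*, *Hsp90b1* and *Herpud1* carry the ER motifs and because the promoters of *Hspa1a* and *Hspa1b* were 98.8% identical, at 247 of 250 bases. The window of *Hspa5* is chr2:34771840-34772089 on the plus strand, with the match 65 to 47 bases before the start. That of *Hsp90b1* is chr10:86705445-86705694 on the minus strand, with one match at 212 to 194 and one at 107 to 89 bases before the start. That of *Herpud1* is chr8:94386179-94386428 on the plus strand, with the match at 52 to 42 bases. Those of *Hspa1a* and *Hspa1b* are chr17:34972157-34972406 and chr17:34959239-34959488, both on the minus strand, with the match at 104 to 97 bases.
Hspa5: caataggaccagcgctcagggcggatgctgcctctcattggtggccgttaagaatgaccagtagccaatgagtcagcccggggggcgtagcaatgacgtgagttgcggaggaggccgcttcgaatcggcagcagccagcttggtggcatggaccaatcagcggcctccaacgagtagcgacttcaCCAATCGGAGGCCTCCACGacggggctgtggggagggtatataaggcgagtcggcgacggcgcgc
Hsp90b1: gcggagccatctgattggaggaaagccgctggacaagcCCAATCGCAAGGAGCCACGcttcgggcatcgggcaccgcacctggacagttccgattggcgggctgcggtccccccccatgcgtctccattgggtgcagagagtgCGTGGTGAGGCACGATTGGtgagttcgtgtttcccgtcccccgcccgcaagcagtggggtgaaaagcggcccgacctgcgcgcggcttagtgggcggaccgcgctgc
Herpud1: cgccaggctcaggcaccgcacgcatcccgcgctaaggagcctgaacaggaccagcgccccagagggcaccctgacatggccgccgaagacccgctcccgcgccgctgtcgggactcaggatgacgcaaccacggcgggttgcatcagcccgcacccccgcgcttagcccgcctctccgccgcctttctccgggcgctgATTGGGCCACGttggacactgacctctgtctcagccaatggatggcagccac
Hspa1a: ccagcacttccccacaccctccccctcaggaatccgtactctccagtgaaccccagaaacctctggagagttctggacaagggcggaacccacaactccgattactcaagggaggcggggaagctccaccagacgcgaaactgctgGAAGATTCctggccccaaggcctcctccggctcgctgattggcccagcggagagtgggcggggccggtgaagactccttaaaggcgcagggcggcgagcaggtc
Hspa1b: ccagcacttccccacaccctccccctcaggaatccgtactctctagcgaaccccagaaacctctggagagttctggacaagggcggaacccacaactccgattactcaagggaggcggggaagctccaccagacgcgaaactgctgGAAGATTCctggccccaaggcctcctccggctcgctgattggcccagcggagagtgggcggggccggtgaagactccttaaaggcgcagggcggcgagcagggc

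The question at both exposure times was whether DEP exposure changed the RNA of these genes in nasal tissue. Values below are log2 ratios of DEP over control, in which 0 means equal RNA and 1 means a 2-fold excess in exposed mice, and the gene's brightest probe stands for it unless another probe is named. A gene was called when its limma test passed an adjusted p of 0.05, by Benjamini-Hochberg over every probe in the test. Per array, 18661 to 25098 probes stood above background for DEP RNA and 17105 to 26964 for control RNA. Precision is limited by the number of arrays. In this bulk tissue, fewer cells of a type and less RNA per cell cannot be told apart.

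After 4 weeks of DEPs, 3 of the 9 genes were called, and all 3 were lower in exposed mice: *Hspa1a*, *Dnajb1* and *Hsph1*, which are all cytosolic. With the scanner software's processed signals in place of normexp and loess, the balance at 4 weeks was 2 higher (*Ddit3* and *Herpud1*) and 1 lower (*Hsph1*). With normexp and loess, the 3 called genes are 33.3% of the 9. Over all 20723 genes or transcripts tested at 4 weeks, 38.1% were called (21.4% higher and 16.7% lower). After 8 weeks, 4 of the 9 genes were called. The ER chaperone *Hspa5* was higher, while *Hspa8*, *Hsph1* and *Ddit3* were lower. This is 44.4%, against 37.4% of all genes tested (20.4% higher and 17% lower). Of all called genes at 8 weeks, 54.5% were higher, but 27% with median centring of the arrays, which gave 1 of the 9 genes as higher and 5 as lower there. Between the exposure times, 4 of the 9 differed, *Hspa5* upwards and *Hspa8*, *Ddit3* and *Herpud1* downwards, against 31% of all genes (14.9% and 16.1%). The 8-week arrays lay wholly above or wholly below the 4-week arrays for 6 of the 9 genes, and for 42.2% of all genes. At 4 and 8 weeks the shares called were near those over all genes. In the difference the share was 44.4% against 31%, and the share of genes without overlap was also larger than over all genes. Each gene weighs heavily in a share of 9, so these counts do not set the genes apart. Their median log2 ratio was -0.12 at 4 weeks, -0.13 at 8 weeks and 0.14 for the difference, where the medians over all genes tested were -0.00029, 0.013 and 0.021.

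**Figure D1:**
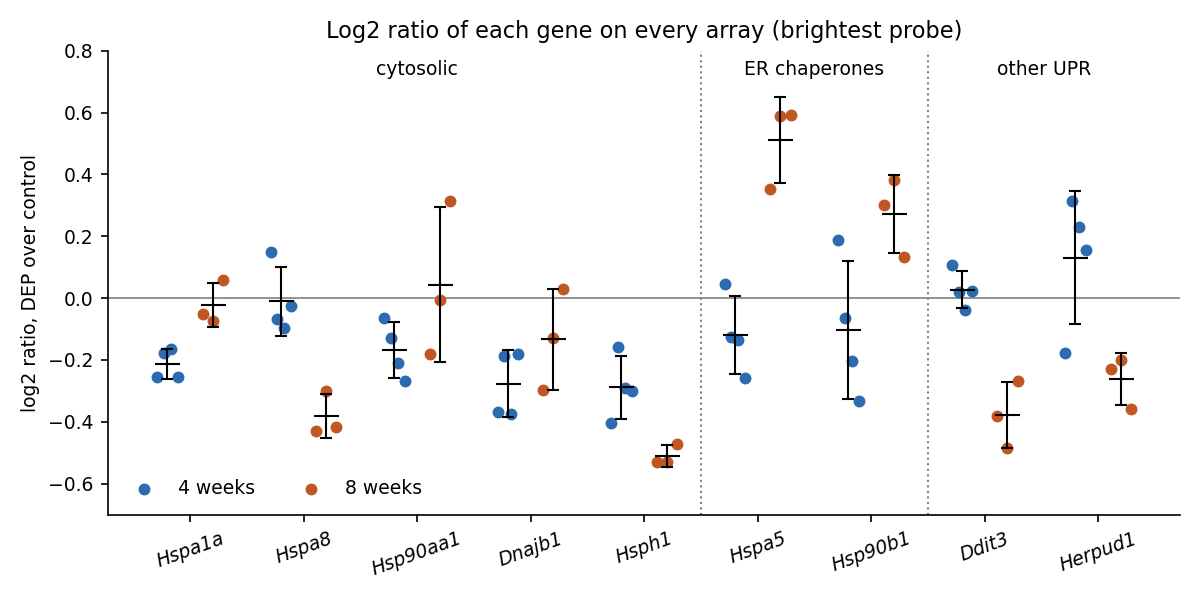
Log2 ratio of DEP over control on every array for the brightest probe of each gene, with 4 arrays at 4 weeks (blue) and 3 arrays at 8 weeks (orange); bars are the mean and 1 SD. *Hspa5* lies between 0.35 and 0.59 at 8 weeks, while *Hspa8*, *Hsph1* and *Ddit3* all lie below -0.26 there.

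*Hspa8*, the constitutive cytosolic Hsp70 that also uncoats clathrin vesicles, was lower in exposed mice at 8 weeks. Its brightest probe (A_55_P2080603) gave 0.15, -0.07, -0.10 and -0.02 on the 4 arrays at 4 weeks, and -0.43, -0.30 and -0.42 on the 3 arrays at 8 weeks. The ranges do not overlap, and every 8-week array lies below every 4-week array. The mean at 4 weeks was -0.01 (SE 0.05, adjusted p = 0.90, 95% interval -0.14 to 0.12). At 8 weeks it was -0.38 (SE 0.06, adjusted p = 0.0029), so that the RNA fell by 23.2%, and the difference between the times was -0.37 (SE 0.08, adjusted p = 0.014).

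The other probes of *Hspa8* were lower at both times. A_55_P2069721 gave -0.29, -0.18, -0.23 and -0.33 at 4 weeks, and -0.76, -0.75 and -0.59 at 8 weeks. Its means were -0.26 (SE 0.05, adjusted p = 0.0059) and -0.70 (SE 0.06, adjusted p = 8.8e-05), with a difference of -0.44 (SE 0.08, adjusted p = 0.0046). The dimmest probe, A_52_P12877, had the widest spread, with -0.93, -0.45, -0.25 and -0.77 at 4 weeks and -0.97, -1.40 and -1.37 at 8 weeks. Its means were -0.60 (SE 0.12, adjusted p = 0.0067) and -1.25 (SE 0.14, adjusted p = 0.00041), and they differed by -0.65 (SE 0.18, adjusted p = 0.032). So the 3 probes shared the direction at 8 weeks and the sign of the difference, but disagreed in size at 8 weeks, where the RNA fell by 23.2% by the brightest probe and fell by 57.8% by the dimmest. At 4 weeks they disagreed on the call itself. The 8-week value of A_52_P12877 was the only one among the 12 probes past the study's own thresholds of an unadjusted p of at most 0.01 and a 2-fold change, which 1.3% of all genes passed at 4 weeks, 2.93% at 8 weeks and 3.06% in the difference by their brightest probe. Whether the probes of *Hspa8* also take up signal from related sequences is not known here.

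**Figure D2:**
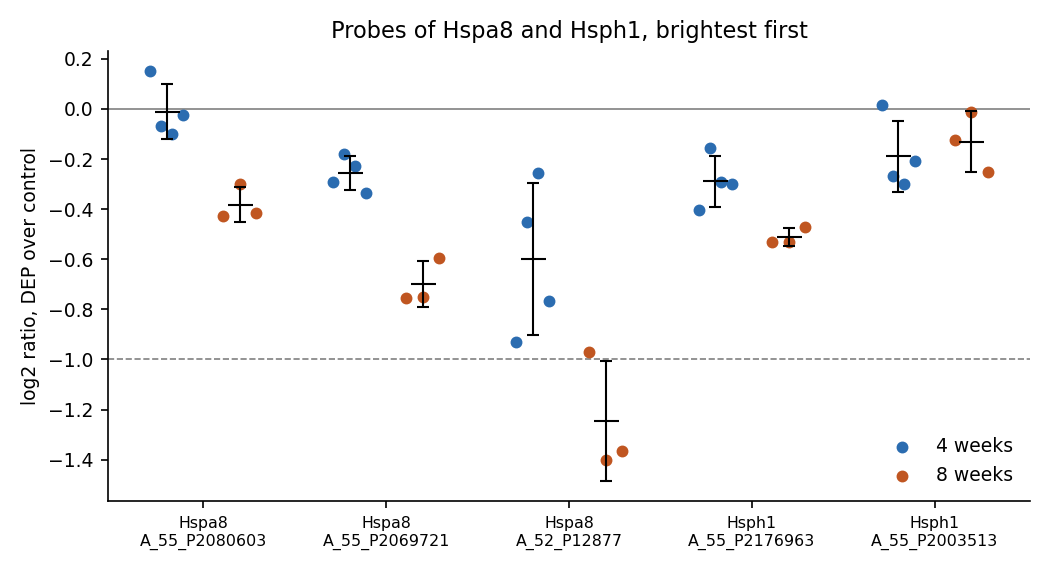
Log2 ratio of DEP over control on each of the 4 arrays at 4 weeks (blue) and 3 arrays at 8 weeks (orange) for the 3 probes of *Hspa8* and the 2 probes of *Hsph1*; bars are the mean and 1 SD, and the dashed line marks a 2-fold decrease. The dimmer the *Hspa8* probe, the lower its ratio, and the 8-week arrays lie below all 4-week arrays for the brighter *Hsph1* probe but overlap with them for the dimmer one.

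*Hspa1a*, the stress-inducible Hsp70, was slightly lower in exposed mice at 4 weeks. Its only probe (A_55_P2068459) gave -0.26, -0.18, -0.16 and -0.25 at 4 weeks, and -0.05, -0.08 and 0.06 at 8 weeks. The means were -0.21 (SE 0.05, adjusted p = 0.0087), by which the RNA fell by 13.7%, and -0.02 (SE 0.05, adjusted p = 0.78, 95% interval -0.14 to 0.10). All 8-week arrays lie above all 4-week arrays, but the difference of 0.19 (SE 0.07, adjusted p = 0.074) was not called. With the processed signals, the 4-week value was -0.09 (adjusted p = 0.27) and the difference turned to -0.11 (adjusted p = 0.40). The spot was dim, with median signals of 108 to 213 on the scanner's scale over both channels. The coding sequence of *Hspa1a* is nearly the same as that of *Hspa1b*, so part of this signal may belong to *Hspa1b*.

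*Dnajb1*, the Hsp40 that hands unfolded clients to Hsp70, was lower at 4 weeks, at -0.37, -0.19, -0.37 and -0.18 (mean -0.28, SE 0.07, adjusted p = 0.014), so that the RNA fell by 17.5%. At 8 weeks its arrays gave -0.30, -0.13 and 0.03, on both sides of 0. The 8-week mean was -0.13 (SE 0.08, adjusted p = 0.21, 95% interval -0.31 to 0.04). The 2 sets of arrays overlap, and the difference of 0.14 (SE 0.10, adjusted p = 0.32) turned to -0.06 with median centring, which also brought an 8-week call (-0.45, adjusted p = 0.0034). The 4-week call was lost with the processed signals (-0.18, adjusted p = 0.069) and without 4-week replicate 3 (-0.24, adjusted p = 0.054).

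*Hsph1* (Hsp110), which exchanges the nucleotide of Hsp70 so that a client is released, was lower at both times by its brighter probe. A_55_P2176963 gave -0.41, -0.16, -0.29 and -0.30 at 4 weeks and -0.53, -0.53 and -0.47 at 8 weeks, with every 8-week array the lower. The means were -0.29 (SE 0.05, adjusted p = 0.0039) and -0.51 (SE 0.06, adjusted p = 0.00049), by which the RNA fell by 18.1% and fell by 29.8%, and the difference of -0.22 (SE 0.08, adjusted p = 0.065) was not called. The difference was called in 4 of 14 alternatives, among them median centring (-0.42, adjusted p = 0.025) and the processed signals (-0.34, adjusted p = 0.036). The dimmer probe, A_55_P2003513, gave 0.02, -0.27, -0.30 and -0.21 at 4 weeks and -0.13, -0.01 and -0.25 at 8 weeks. Its means of -0.19 (SE 0.07, adjusted p = 0.058) and -0.13 (SE 0.08, adjusted p = 0.23) were called at neither time. The 2 probes therefore disagree on the 8-week change.

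*Hsp90aa1*, the inducible cytosolic Hsp90, gave -0.06, -0.13, -0.21 and -0.27 at 4 weeks and -0.18, -0.01 and 0.31 at 8 weeks. The 8-week arrays spread on both sides of 0 and overlap with those of 4 weeks. Its means were -0.17 (SE 0.08, adjusted p = 0.14, 95% interval -0.35 to 0.02) and 0.04 (SE 0.09, adjusted p = 0.76, 95% interval -0.17 to 0.26), and the difference was 0.21 (SE 0.12, adjusted p = 0.23). With median centring the 4-week value was called, at -0.26 (adjusted p = 0.049). The 8-week value had the other sign with median centring (-0.20) and without 8-week replicate 3 (-0.09), in each case uncalled.

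*Hspa5*, the Hsp70 of the ER and a usual gauge of the unfolded protein response, was higher in exposed mice at 8 weeks. By brightest probes, it had the largest difference between exposure times among the 9 genes. It gave 0.05, -0.13, -0.13 and -0.26 at 4 weeks, and 0.35, 0.59 and 0.59 at 8 weeks. No 8-week array reaches down to the 4-week arrays. The mean at 4 weeks was -0.12 (SE 0.07, adjusted p = 0.19, 95% interval -0.27 to 0.03). At 8 weeks it was 0.51 (SE 0.08, adjusted p = 0.0017), or 42.5% more RNA, and the difference was 0.63 (SE 0.10, adjusted p = 0.0032). The difference was called in each of the 14 alternatives run, between 0.51 and 0.71. The 8-week value was called in 14 of 15, the exception being the methods' t-test (adjusted p = 0.067), and it was 0.33 with median centring and 0.57 with the processed signals.

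*Hsp90b1*, the Hsp90 of the ER that folds integrins and Toll-like receptors, had the same signs as *Hspa5* but was called at neither time. It gave 0.19, -0.06, -0.20 and -0.33 at 4 weeks and 0.30, 0.38 and 0.13 at 8 weeks, so that 4-week replicate 1 lies among the 8-week arrays. The means were -0.10 (SE 0.09, adjusted p = 0.38) and 0.27 (SE 0.10, adjusted p = 0.067, 95% interval 0.04 to 0.50). Their difference was 0.37 (SE 0.13, adjusted p = 0.067, 95% interval 0.07 to 0.68). The 8-week value was called in 4 of 15 alternatives, with adjusted p = 0.025 without 4-week replicate 1, but with median centring it was 0.02 (adjusted p = 0.91). The difference was 0.47 (adjusted p = 0.016) without 4-week replicate 1 and 0.21 (adjusted p = 0.33) with median centring.

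*Ddit3*, whose product CHOP is usually scarce until the PERK branch is active, was lower in exposed mice at 8 weeks. It gave 0.11, 0.02, -0.04 and 0.02 at 4 weeks, close to 0 on all arrays, and -0.38, -0.48 and -0.27 at 8 weeks. The means were 0.03 (SE 0.05, adjusted p = 0.70, 95% interval -0.09 to 0.15) and -0.38 (SE 0.06, adjusted p = 0.0021), so that the RNA at 8 weeks fell by 23.0%. The difference of -0.41 (SE 0.08, adjusted p = 0.0072) was opposite in sign to that of *Hspa5*. *Ddit3* was called as lower at 8 weeks in all 15 alternatives run, between -0.59 and -0.32. At 4 weeks it was called as higher with the processed signals (0.15, adjusted p = 0.039) and in none of the other 14.

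*Herpud1*, the ER membrane scaffold of the degradation machinery, gave -0.18, 0.31, 0.23 and 0.15 at 4 weeks, with replicate 1 apart in sign, and -0.23, -0.20 and -0.36 at 8 weeks. Its means of 0.13 (SE 0.08, adjusted p = 0.23) and -0.26 (SE 0.09, adjusted p = 0.060) were called at neither time. At 4 weeks it was called as higher without replicate 1 (0.23, adjusted p = 0.020) and with the processed signals (0.23, adjusted p = 0.030). At 8 weeks it was called as lower in 6 of 15 alternatives, the lowest value being that with median centring (-0.55, adjusted p = 0.0063). The difference of -0.39 (SE 0.12, adjusted p = 0.045) was called, and it held its call in 6 of 14 alternatives. It lost the call without each of 4-week replicates 2, 3 and 4 and each of the 8-week replicates, with adjusted p between 0.087 and 0.14.

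The channels show on which side of the ratio the genes differed between the 2 slides, although slide and time cannot be told apart and these levels carry no test. They are normalized log2 intensities of each channel. For *Hspa5*, the control level was 13.45 to 13.64 at 4 weeks and 12.91 to 13.14 at 8 weeks, while the DEP level was 13.30 to 13.57 and 13.34 to 13.73. Thus the control level of *Hspa5* was lower on the 8-week slide and the DEP levels overlapped. *Hsp90b1* had the same pattern, with control levels of 12.30 to 12.50 and 11.97 to 12.16 against DEP levels of 12.06 to 12.49 and 12.29 to 12.38. *Ddit3* was the other way round, since its DEP level went from between 8.39 and 8.60 to between 7.88 and 8.03, and its control level only from between 8.37 and 8.50 to between 8.26 and 8.40. *Herpud1* had a higher control level on the 8-week slide, 11.77 to 11.85 against 11.18 to 11.48, with overlapping DEP levels of 11.16 to 11.71 and 11.49 to 11.57. For the brightest probe of *Hspa8* the DEP level was 15.09 to 15.41 and then at most 15.06. Its control level was 15.19 to 15.33 and then 15.36 to 15.47, so both channels moved apart. The other probes of *Hspa8* differed in this. For A_55_P2069721 the control level was higher on the 8-week slide and the DEP levels overlapped (13.31 to 13.77 and 13.31 to 13.44). For A_52_P12877 the DEP level was lower and the control levels overlapped (10.95 to 11.16 and 10.74 to 11.35). *Hspa1a* was lower in both channels on the 8-week slide, at up to 7.09 (DEP) and up to 7.14 (control) against at least 7.27 and at least 7.50.

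**Figure D3:**
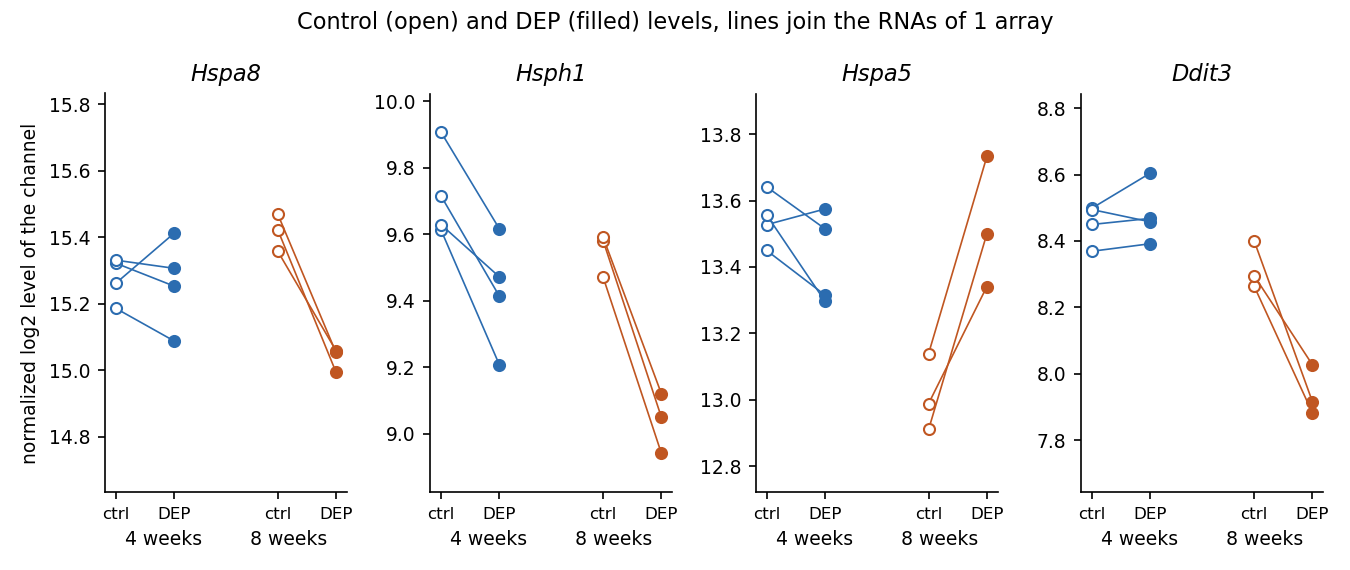
Normalized log2 level of the control (open) and DEP (filled) channel on each of the 4 arrays at 4 weeks (blue) and 3 arrays at 8 weeks (orange) for *Hspa8*, *Hsph1*, *Hspa5* and *Ddit3*; a line joins both RNAs of an array, and each panel has its own axis range. At 8 weeks the control level of *Hspa5* lies at 12.91 to 13.14, below the 13.45 to 13.64 of 4 weeks, while for *Ddit3* it is the DEP level that lies lower.

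Set against each other, the median of the 5 cytosolic genes stood below that of the 2 ER chaperones on every 8-week array. The median log2 ratio of the 5 cytosolic genes with a value (*Hspa1a*, *Hspa8*, *Hsp90aa1*, *Dnajb1* and *Hsph1*) minus the median of the 2 ER chaperones was -0.37, -0.06, -0.04 and 0.04 on the 4-week arrays. On the 8-week arrays it was -0.62, -0.61 and -0.33. The means were -0.11 ± 0.18 (SD, n = 4) and -0.52 ± 0.16 (SD, n = 3), and 4-week replicate 1, at -0.37, lies among the 8-week arrays. Without that array the 4-week mean was -0.02. The ER median went from -0.11 ± 0.17 to 0.39 ± 0.083, and the cytosolic median from -0.22 ± 0.047 to -0.13 ± 0.16. The small move of the cytosolic median covers genes that went in opposite directions. Between the times *Hspa8* differed by -0.37 and *Hsph1* by -0.22, but *Hspa1a* by 0.19, *Hsp90aa1* by 0.21 and *Dnajb1* by 0.14. Of these, only *Hspa8* was called. On each 8-week array the cytosolic median was the value of *Dnajb1*. These medians over chosen genes are descriptions with no test. Single genes did not all follow them, since *Hsp90aa1* (0.31) lay above *Hsp90b1* (0.13) on 8-week replicate 3. In the wider lists below, the 8-week medians were close, at -0.02 for 28 chaperone and heat shock genes and 0.02 for 19 ER genes. The list of 28 is not purely cytosolic, since it also holds the mitochondrial *Hspd1* and *Hspe1*. With median centring they were -0.30 and -0.08.

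**Figure D4:**
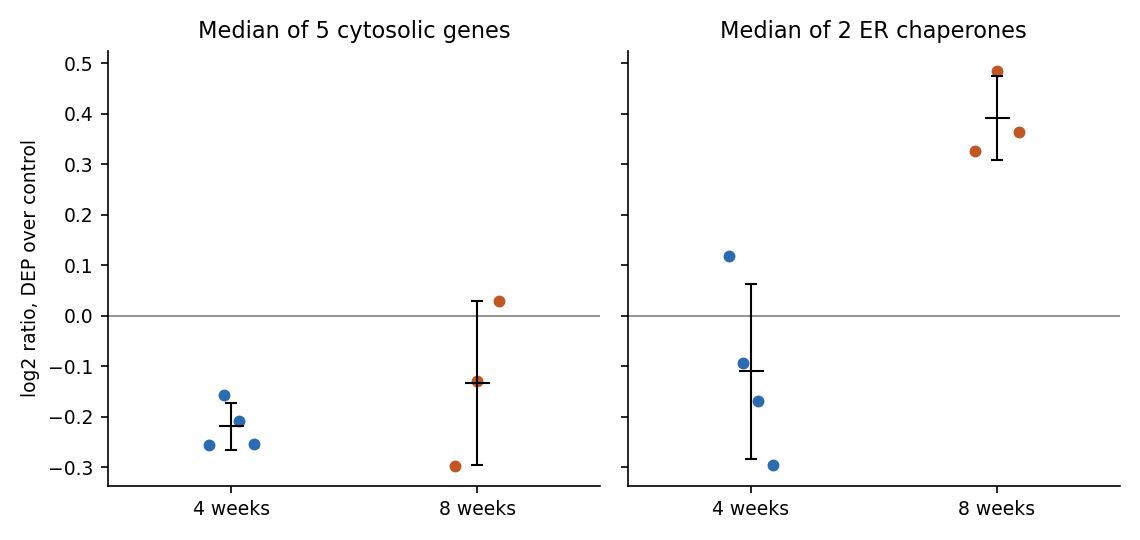
Median log2 ratio of DEP over control per array over 5 cytosolic genes (left) and 2 ER chaperones (right), for 4 arrays at 4 weeks (blue) and 3 at 8 weeks (orange); bars are the mean and 1 SD. The ER medians are 0.33 to 0.49 at 8 weeks and -0.30 to 0.12 at 4 weeks.

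A wider set of 80 genes in 5 lists, none of them among the 10, was tested in the same fit. Of these, 34 (42.5%) were called at 4 weeks, 35 (43.8%) at 8 weeks and 28 (35%) in the difference, near the 38.1%, 37.4% and 31% over all genes. The count of called genes at 8 weeks was 23, 20 and 23 without 8-week replicate 1, 2 and 3. In the difference it was 14 without 8-week replicate 2 and 18 without 8-week replicate 3.

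A list of 28 other genes held cytosolic chaperones and heat shock genes, the mitochondrial *Hspd1* and *Hspe1* included. Of these, 3 were higher, 8 lower and 17 neither at 4 weeks, and the counts were again 3, 8 and 17 at 8 weeks. In the difference, 3 were higher and 4 lower. With median centring these counts were 1 higher and 12 lower at 4 weeks, 0 and 17 at 8 weeks, and 0 and 6 in the difference. The Hsp70 and Hsp90 cochaperone *St13* was at -0.50 at 4 weeks (adjusted p = 0.00017) and the Hsp40 *Dnaja2* at -0.44 (adjusted p = 0.0011). The Hsp90 cochaperone *Ptges3* was at -0.38 (adjusted p = 0.0068), and the ubiquitin ligase *Stub1*, which marks Hsp70 clients for degradation, at 0.38 (adjusted p = 0.00092). At 8 weeks *Bag1*, a nucleotide exchange factor of Hsp70, was at -0.52 (adjusted p = 0.00016), the Hsp90 cochaperone *Chordc1* at -0.34 (adjusted p = 0.0012) and the constitutive Hsp90 *Hsp90ab1* at -0.31 (adjusted p = 0.037). The mitochondrial chaperonin *Hspd1* was at 0.30 (adjusted p = 0.034), but at -0.01 with median centring and 0.23 (adjusted p = 0.079) with the processed signals. In the difference, *Bag1* was at -0.48 (adjusted p = 0.0015), the cochaperone *Fkbp4* at -0.38 (adjusted p = 0.039) and the small heat shock protein *Hspb8* at 0.36 (adjusted p = 0.0074), which median centring lowered to 0.19 (adjusted p = 0.13).

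Of 19 ER chaperones and folding enzymes, 2 were higher and 7 lower at 4 weeks, 6 were higher and 2 lower at 8 weeks, and 8 were higher and 1 lower in the difference, where *Hspa5* also lies. The counts depend on the scaling at 8 weeks, since median centring gave 0 higher and 6 lower there with limma, and 4 higher and 1 lower in the difference. Median centring also put the median of all genes tested at -0.10 at 8 weeks, and the list's median at -0.08. *Serpinh1* (Hsp47), the chaperone of collagen, had the largest change of the list. It was at -0.85 (SE 0.09, adjusted p = 0.00033) at 4 weeks and 0.49 (SE 0.10, adjusted p = 0.0080) at 8 weeks, a difference of 1.34 (SE 0.13, adjusted p = 0.00042). *Manf*, a secreted ER stress protein, was at -0.28 (adjusted p = 0.010) and 0.43 (adjusted p = 0.0032), with a difference of 0.71 (SE 0.10, adjusted p = 0.0016). *Sdf2l1*, a partner of BiP, was at 0.48 at 8 weeks (adjusted p = 0.0026) and 0.56 in the difference (adjusted p = 0.0062). The disulphide isomerase *Pdia6* differed by 0.51 (adjusted p = 0.010). *Dnajb9*, the Hsp40 that turns IRE1 off, went against them, at -0.52 at both times (adjusted p = 0.00088 and 0.0016). With median centring the 8-week values of *Serpinh1* (0.16), *Manf* (0.10) and *Sdf2l1* (0.19) were not called, while the differences of all 3 were. The isomerase *Pdia4*, at -0.36 (adjusted p = 0.028), and *Creld2*, at -0.33 (adjusted p = 0.0017), were lower at 4 weeks, the first not with the processed signals (-0.28, adjusted p = 0.17).

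Of 10 genes of ER-associated degradation, 1 was higher and 2 lower at 4 weeks, and 2 were higher and 2 lower at 8 weeks. With median centring 1 was higher and 5 lower at 4 weeks, and 1 higher and 4 lower at 8 weeks. *Derl3*, of the derlin family of the degradation channel, was at 0.85 and 0.77 (adjusted p = 2.3e-05 and 5.9e-05), the largest values of the list at both times. *Derl1*, of the same family, was at -0.41 and -0.37 (adjusted p = 0.0020 and 0.0059). *Edem1*, a lectin that extracts misfolded glycoproteins, was at -0.32 (adjusted p = 0.022) and 0.44 (adjusted p = 0.011), a difference of 0.76 (SE 0.13, adjusted p = 0.0045). The ATPase *Vcp*, which pulls proteins out of the membrane, was at -0.18 at 8 weeks (adjusted p = 0.044) and -0.31 in the difference (adjusted p = 0.019), and *Derl2* was at 0.22 in the difference (adjusted p = 0.048). The 8-week call of *Vcp* was lost with the processed signals (-0.12, adjusted p = 0.13). The call of *Derl2* was lost with them (0.15, adjusted p = 0.17) and with median centring, where its difference was near 0 (adjusted p = 1.00). The 8-week value of *Edem1* with median centring, 0.21 (adjusted p = 0.20), was not called, but its difference was.

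Of 11 sensors and transcription factors, 2 were higher and 1 lower at 4 weeks, and 3 were higher and 1 lower at 8 weeks. With median centring 1 was higher and 2 were lower at 4 weeks, and 2 were higher and 1 lower at 8 weeks. *Ern1*, which encodes IRE1, was at 0.46 at 4 weeks (adjusted p = 0.0024) and -0.48 in the difference (adjusted p = 0.015). *Xbp1*, whose RNA IRE1 splices, was at -0.40 at 4 weeks (adjusted p = 0.032), and the probes give its total RNA and not the spliced form. *Atf4* was at 0.20 (adjusted p = 0.024) and 0.43 (adjusted p = 0.0017), and the 4-week call was lost with median centring (0.13, adjusted p = 0.11) and with the processed signals (0.10, adjusted p = 0.13). *Eif2ak3*, which encodes PERK, was at 0.33 at 8 weeks (adjusted p = 0.024) and 0.50 in the difference (adjusted p = 0.018). Both calls were lost with median centring (0.07 and 0.33, adjusted p = 0.50 and 0.054). Median centring also brought a 4-week call of *Eif2ak3* as lower (-0.26, adjusted p = 0.025). *Ern2*, the epithelial IRE1, was at 0.22 at 8 weeks (adjusted p = 0.014) and 0.29 in the difference (adjusted p = 0.017). With the processed signals the difference of *Ern2* was 0.33 but not called (adjusted p = 0.11). The protease *Mbtps1*, which cuts ATF6, was at -0.24 at 8 weeks (adjusted p = 0.011).

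Of 12 targets of PERK and ATF4, 2 were higher and 6 lower at 4 weeks, and 4 were higher and 4 lower at 8 weeks. With median centring 1 was higher and 6 were lower at 4 weeks, and 0 and 6 at 8 weeks. *Chac1*, a glutathione-degrading enzyme, was at -0.56 and -0.92 (adjusted p = 0.00028 and 3.8e-05). *Trib3*, a pseudokinase induced by CHOP, was at -0.77 at 8 weeks (adjusted p = 6.4e-05). The amino acid enzyme *Asns* was at 0.45 at 8 weeks (adjusted p = 0.0013) and 0.66 in the difference (adjusted p = 0.0011). The mTOR inhibitor *Ddit4* was at 0.59 (adjusted p = 0.012) and 0.76 (adjusted p = 0.017) in the same comparisons. The transcription factor *Atf5*, which olfactory sensory neurons also make, was at 0.53 at 4 weeks (adjusted p = 0.00023) and differed by -0.93 (adjusted p = 0.00017). *Atf3* was at -0.33 at 4 weeks (adjusted p = 0.0060), a call lost with the processed signals (-0.36, adjusted p = 0.10). With median centring, all 4 genes called as higher at 8 weeks lost the call: *Asns* (0.20), *Ddit4* (0.26), *Atf3* (0.22) and *Sesn2* (0.05).

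**Figure D5:**
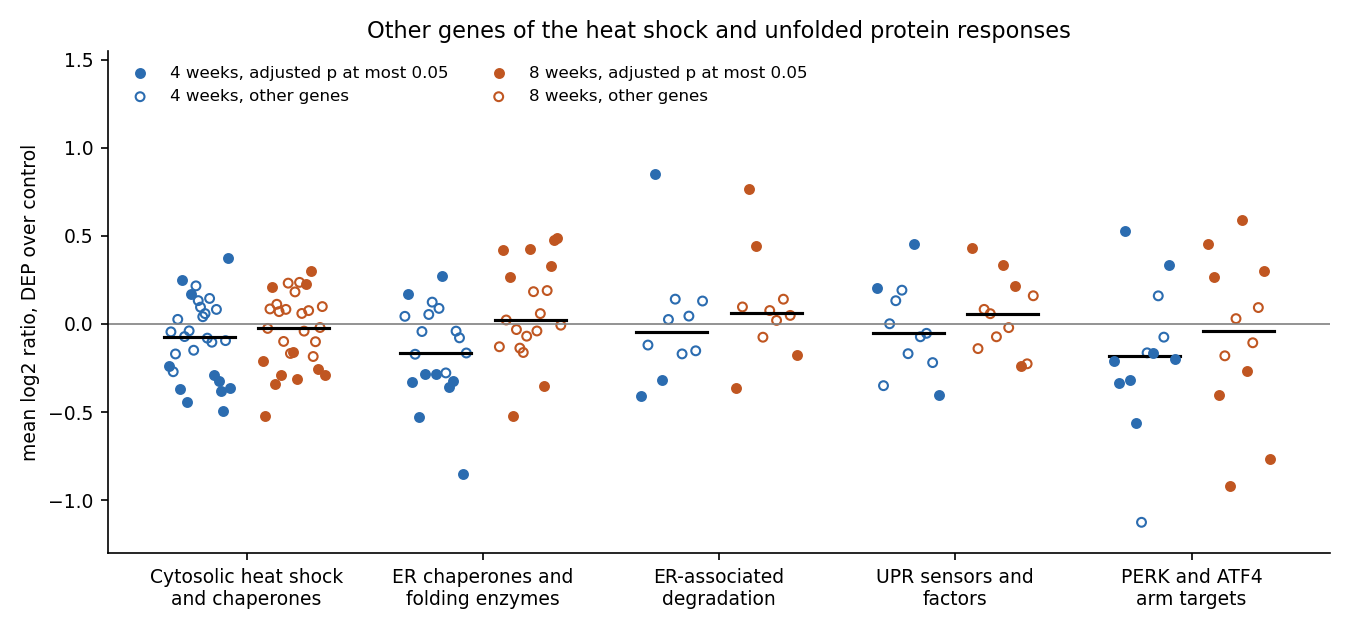
Mean log2 ratio of DEP over control of the 80 other genes, in 5 lists, at 4 weeks (blue, 4 arrays) and 8 weeks (orange, 3 arrays); filled points have an adjusted p of at most 0.05, and black lines are list medians. The ER chaperone list has 7 filled points below 0 at 4 weeks and 6 above 0 at 8 weeks, of which median centring of the arrays leaves 0 called as higher.

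Markers of several cell types differed between exposed and control mice along with these genes, and their part in the results was not tested. The labelled tissue was present, since all 6 markers of olfactory sensory neurons and all 5 of ciliated respiratory epithelium were tested. Of the olfactory markers, 4 of 6 were higher at 4 weeks (median 0.48) and 5 of 6 lower at 8 weeks (median -0.58). Their summed level was 140033 to 154561 (DEP) against 75407.8 to 87827.3 (control) at 4 weeks, and 90903.1 to 93880.4 against 123747 to 142967 at 8 weeks, on the scale of normalized intensities. The brightest was *Omp*, at 0.89 and -0.43, which alone made up most of each of these sums. *Gng13* had the largest value at 8 weeks, -0.94. Bone and tooth markers went the other way, with the signs of *Serpinh1* at both times. Of these, 4 of 5 were lower at 4 weeks (median -0.56) and 4 of 5 higher at 8 weeks (median 0.67), with summed levels of 14198.5 to 16302.1 against 22827.3 to 26762, and then 66893.5 to 70148 against 31153 to 34534.3. The brightest was the collagen *Col1a1*, at -0.53 and 0.67, and the enamel protein gene *Ambn* had the largest values, at -2.41 and 1.52.

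Of 5 plasma cell markers, 4 were tested and *Tnfrsf17* was not. Of the 4, 1 was higher and 2 were lower at 4 weeks, and 1 was higher at 8 weeks. The antibody joining chain *Jchain* was at -0.24 (adjusted p = 0.0076) and 0.83 (adjusted p = 3.5e-05). The brightest, *Sdc1*, was at -0.33 (adjusted p = 0.016) and 0.02, *Prdm1* at 0.20 (adjusted p = 0.025) and -0.06, and *Mzb1* at -0.07 and 0.08. The markers thus did not share a direction at 4 weeks. The summed level of the 4 was 804.827 to 966.045 (DEP) against 1019.74 to 1086.32 (control) at 4 weeks, and 902.674 to 1040.71 against 815.841 to 842.789 at 8 weeks. Most of the 4-week sums came from *Sdc1* alone, at 454 to 596 (DEP) and 595 to 705 (control).

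Neutrophil markers were lower at both times, 3 of 4 at 4 weeks and 4 of 4 at 8 weeks, and *S100a9*, the brightest, was at -1.71 and -1.80. Skeletal muscle markers were higher for 1 and lower for 1 of 4 at 4 weeks, and higher for 1 and lower for 3 at 8 weeks, with the brightest, *Acta1*, at -0.04 and -0.95 and *Ckm* at -1.32 at 8 weeks. Squamous markers were lower for 4 of 5 at 4 weeks, and higher for 1 and lower for 1 at 8 weeks. The brightest of them, *Krt5*, was at 0.16 and 0.05, and *Lor* at -0.85 at 4 weeks. Gland markers went both ways, 1 higher and 2 lower of 6 at 4 weeks and 2 and 2 at 8 weeks, with *Bpifa1*, the brightest, at 0.04 and 0.41 and the mucin *Muc5b* at -1.54 at 8 weeks. Ciliated cell markers were higher for 2 of 5 at 4 weeks and 3 of 5 at 8 weeks, with *Rsph1*, the brightest, at 0.40 and 0.07 and *Dnah5* at 0.66 at 8 weeks.

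Of 8 immediate early genes, which respond to tissue handling among other things, 1 was lower at 4 weeks and 3 were higher at 8 weeks, with *Jun*, the brightest, at 0.04 and 0.37. Here 4-week replicate 1 stood apart, since the summed control level was 10121.1 on it and 3606.48 to 4092.35 on the other 4-week arrays. The gap lay in *Junb*, whose control level was 6659.02 there and at most 97.2 on the other 4-week arrays, with a log2 ratio of -5.70 against -0.43, -0.05 and -0.29. The 4-week mean of *Junb*, -1.62, was not called (adjusted p = 0.17).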

How the data were processed

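Nasal tissue RNA of DEP-exposed and control mice was hybridised to 7 Agilent 4x44K two-colour arrays. The authors deposited 1 file per array from Agilent Feature Extraction 10.10.1.1, in which the median signals and backgrounds of the spots are raw intensity values, and the processed signals are intensity values after the software's own background and dye correction. The GeneSpring normalization of the study is not in these values.

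Starting from median signals, backgrounds were corrected with limma 3.58.1 in R 4.3.3 (normexp, offset 50). Its parameters were fitted without spots marked as background outliers, because such spots on 4-week replicate 2 distort a fit on all spots. Log2 ratios of Cy5 over Cy3 were normalized within arrays by loess. Spots marked as feature outliers (218 to 790 per array) were left out, and spots of a probe were averaged. Of 39429 probes, 25236 were tested, those well above background on at least 3 of 7 arrays in one channel or the other, and 28330 were named through their transcript in RefSeq GRCm38.p6. No spot was saturated. Channel levels are after loess and Aquantile. One limma model with 1 mean per exposure time gave each time against 0 and their difference, with Benjamini-Hochberg adjustment over all probes tested. A gene's value is that of its brightest tested probe. The steps were also run on simulated data, in which few probes changed and by the same amount at both times. Such data do not test the scaling where many genes change.

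Members and gene lists were chosen with earlier results of these data known. Of the lists, called genes among the 4 largest changes of a list, or any called gene of a list with at most 5, are named, and of marker lists the brightest and the most changed. *Mzb1* and *Prdm1* were named after their values were seen, as were genes named for a change of call with the scaling (*Sesn2*, *Cct5* and *Dnajb11*). Alternatives were other background fits, scalings, filters, probes and tests, a replicate block, and leaving out each array. Replicate numbers did not pair the arrays (correlations of deviations -0.0067, -0.0077 and 0.017).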

Additional observations from a re-analysis of the deposited data

Results flagged for a closer look

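The effect of DEPs differed between 8 and 4 weeks, by the limma test of the difference itself, for 6 probes of 4 genes. *Hspa5* differed by 0.63 on the log2 scale (adjusted p = 0.0032), with all 3 arrays higher at 8 weeks and 3 of 4 lower at 4 weeks. The probes of *Hspa8* differed by -0.37 (adjusted p = 0.014), -0.44 (adjusted p = 0.0046) and -0.65 (adjusted p = 0.032), with all 3 arrays lower at 8 weeks for each. *Ddit3* differed by -0.41 (adjusted p = 0.0072), with all 3 arrays lower at 8 weeks and 3 of 4 slightly higher at 4 weeks. *Herpud1* differed by -0.39 (adjusted p = 0.045), with all 3 arrays lower at 8 weeks and 3 of 4 higher at 4 weeks. The exposure times lie on different slides, so a difference between times cannot be told apart from one between slides. A Dixon test for an array standing apart was run on 13 values over the 4 arrays of 4 weeks. These were the 12 probes and the cytosolic minus ER median, and no array passed the critical value of 0.829. With 4 arrays the test flags only extreme values, so it does not show that the arrays are alike. Without 4-week replicate 1 the mean cytosolic minus ER median at 4 weeks still went from -0.11 to -0.02.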

How the results depend on the processing

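None of the called values of the 9 genes changed sign in any alternative run. Of the pathway genes called at 8 weeks, *Dnajb11* (0.27), *Cct5* (0.21) and *Hspd1* (0.30) had the other sign with median centring (-0.06, -0.05 and -0.01), uncalled. Each value of the 9 genes, called or not, was set against each alternative run for it. Of these combinations of gene, comparison and alternative, 358 kept the side of the threshold, 22 brought a call and 16 ended one. Replicate numbers as a block left 1 of 4 members called in the difference (*Hspa5*; *Hspa8*, *Ddit3* and *Herpud1* had adjusted p of 0.082, 0.062 and 0.12) and 11 of 28 pathway genes, and only 1 of 6 arrays correlated best with its own number. The unpaired t-test of DEP against control levels, which ignores the pairing of channels by array, called 22 pathway genes at 4 weeks, against 34. It ended the calls of *Hsph1* at 4 weeks (adjusted p = 0.12) and *Hspa5* at 8 weeks. *Hspa1a* at 4 weeks lost its call with normexp fitted on all spots (-0.17, adjusted p = 0.060). *Hspa8* at 4 weeks was called with the mean over its probes (-0.29, adjusted p = 0.0030). Called at 8 weeks with median centring were *Dnajb1* (-0.45, adjusted p = 0.0034) and *Herpud1* (-0.55, adjusted p = 0.0063). Leaving out an array moved the members called between 2 and 4 at 4 weeks, 4 and 6 at 8 weeks and 3 and 6 in the difference, and pathway genes called between 25 and 36, 20 and 38, and 14 and 31. The cytosolic minus ER median then lay between -0.16 and -0.02 at 4 weeks and between -0.62 and -0.47 at 8 weeks. Over all genes, 7896 were called at 4 weeks, 5010 with normexp on all spots and 4342 by the unpaired t-test. At 8 weeks 7756 were called, 4791 by that t-test and 4508 without 8-week replicate 2. In the difference 6422 were called, 3191 with the block and 3890 without 8-week replicate 2. Among called genes, 56.2%, 54.5% and 48.2% were higher in the 3 comparisons, 42.3%, 27% and 29% with median centring and 67.7%, 51% and 35.6% with the processed signals. Except where stated, the cause was not tested. Depth on an array is signal over background, which was lowest for *Hspa1a* among the probes of these genes.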
